A study of Mus musculus with 4 samples.

Results

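The AP-1 and Batf transcription factors described here are 10 mouse genes, Jun, Junb, Jund, Fos, Fosb, Fosl1, Fosl2, Batf, Batf3 and Maff, among 18194 genes that a probe set of the array names. They were listed by function, with earlier results of these arrays known. A probe set is the set of oligonucleotides that reads one transcript on the array. Each one whose platform annotation gives a listed gene and no other was taken, which made 14 of the 34958 probe sets that name a single gene. Jun, Jund, Fosl1 and Fosl2 have 2 probe sets each and the other 6 members have 1. The study set wild-type (WT) against KO mice, to find genes that differ between them in regulatory T (Treg) cells. Naive splenic T cells of either genotype spent 3 days in Treg-inducing culture, and total RNA was hybridised to 2 Affymetrix arrays per genotype. The labels do not say which gene the KO lacks, how it was deleted, or the strain and age of the mice, so the deletion could not be checked, and the inducing agents are not named. Arrays 1 and 2 of a genotype are labelled with their own numbered mice, without stating how many mice or cultures each stands for, so the p-values measure only the spread between these arrays, which may be partly technical.

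AP-1 is a dimer of proteins with a basic region, which contacts DNA, and a leucine zipper, which joins the partners. Jun proteins can pair with each other, whereas Fos proteins bind DNA only with a partner such as Jun. Batf and Batf3 have little beyond the basic region and zipper. They pair with Jun proteins, and in lymphocytes such dimers bind together with the interferon regulatory factors Irf4 or Irf8 at composite sites. In T cells, Jun and Fos genes are switched on by antigen receptor signals, and AP-1 acts with NFAT on cytokine genes.

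Start-proximal sequences of the members that changed, and of Maff as a member that did not pass, are shown here. The Maff start shown is one that holds a motif. Jund, Fosb and the first Maff start hold none of the motifs searched and are not printed. The letters were not tested against the direction of change. They are the 120 bases before the annotated start, 5′ to 3′ on the gene's strand, from RefSeq on GRCm38.p6. Capitals mark the motifs TGACGTCA (the cyclic AMP response element) and TGACATCA (a variant of it). The printed stretches are chr4:95052223-95052342 on the minus strand for Jun, chr8:84978749-84978868 on the minus strand for Junb, chr12:85473770-85473889 on the plus strand for Fos, and chr5:32136352-32136471 on the plus strand for Fosl2. Batf lies at chr12:85686600-85686719, Batf3 at chr1:191098294-191098413, and the second of the 3 Maff starts at chr15:79347400-79347519, all on the plus strand.
Jun: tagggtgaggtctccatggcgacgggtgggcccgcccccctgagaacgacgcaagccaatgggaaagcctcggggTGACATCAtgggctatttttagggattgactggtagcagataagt
Junb: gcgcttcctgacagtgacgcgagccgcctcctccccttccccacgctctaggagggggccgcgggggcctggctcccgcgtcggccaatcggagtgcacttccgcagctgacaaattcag
Fos: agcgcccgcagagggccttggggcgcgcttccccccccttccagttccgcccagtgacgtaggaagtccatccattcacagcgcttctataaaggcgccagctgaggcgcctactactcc
Fosl2: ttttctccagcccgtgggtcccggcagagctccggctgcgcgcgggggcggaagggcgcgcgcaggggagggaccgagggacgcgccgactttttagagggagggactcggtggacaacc
Batf: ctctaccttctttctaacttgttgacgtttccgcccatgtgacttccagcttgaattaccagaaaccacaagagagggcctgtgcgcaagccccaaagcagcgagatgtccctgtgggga
Batf3: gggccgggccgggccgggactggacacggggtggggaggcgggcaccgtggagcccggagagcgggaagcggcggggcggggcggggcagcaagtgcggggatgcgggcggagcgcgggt
Maff: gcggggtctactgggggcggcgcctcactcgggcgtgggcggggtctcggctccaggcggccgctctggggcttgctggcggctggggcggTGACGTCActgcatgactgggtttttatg

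RefSeq gave promoter windows of 300 bases (250 before to 50 after the start) for 9 of the 10 members, 11 windows in all, and none was found for Fosl1. Searched on both strands, TGACATCA stood in the Jun window, 45 bases upstream of the start, and in the third Maff window, also 45 bases upstream. TGACGTCA was found in the second Maff window, 29 bases upstream. Both TGACATCA matches read on the gene's own strand, whereas TGACGTCA reads the same on either strand. Neither the AP-1 consensus TGAGTCA, on either strand, nor the serum response element occurred in a member window. Bases farther than 250 upstream were not searched, so an element there, in Fos or another member, would be missed. Over all 32851 windows of this length, TGACATCA was present in 3.62%, TGACGTCA in 1.79%, TGAGTCA in 5.2% and the serum response element in 1.63%. The windows of the changed members differed in base composition, from 46.4% G and C over the 250 upstream bases of Batf to 76% in Batf3. A match is a description of the letters only.

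The values are linear MAS5 signals, which weigh the perfect-match against the mismatch probes of a probe set, and they can be compared between arrays but not between probe sets. Medians over the arrays lay between 56.5 and 62.6. The ratio of 3′ to 5′ signal of the Gapdh control, a sign of RNA integrity, was 1.02 and 1.07 on the WT arrays and 0.908 and 0.923 on the KO arrays, and that of beta-actin was 1.36 and 1.56 against 1.26 and 1.22, so both were slightly lower in KO. T cell markers were present on every array (33481 to 34423 summed in WT, 50703 to 53654 in KO). Such sums are given for comparison between arrays only, as the brightest probe sets dominate them. Those were Cd3d and Cd3g for T cells, and Tnfrsf18 for Treg cells, so a sum can rise while dimmer markers fall. Of the 5 measured 3 rose (Cd3e, Cd3g and Cd3d). Cd4 (786 and 662 in WT, 517 and 631 in KO) and Cd28 (4207 and 4457 in WT, 3539 and 3998 in KO) did not pass. Both KO arrays lay below both WT arrays for Cd4 and for Cd28. Cd3e read 1819 and 1722 in WT and 3062 and 3573 in KO, and of the 5 Treg markers 3 rose (Il2ra, Ctla4 and Tnfrsf18) and 2 fell (Foxp3 and Ikzf2), with a summed signal of 27661 to 28140 in WT and 41554 to 42678 in KO. Foxp3, the defining Treg factor, read 2177 and 2033 in WT and 947 and 1100.5 in KO. Markers of other cells moved with the genotype. Of the mast cell and basophil markers 6 of 8 rose, with a summed signal of 797 to 1074 in WT and 11072 to 14917 in KO. Of the macrophage, monocyte and neutrophil markers 5 of the 6 tested rose (436 to 603 against 2950 to 4542 summed over 7 measured). Both CD8 markers rose (881 to 924 against 2196 to 2653, summed). So did the platelet gene Pf4, 1 of the 2 markers measured for its list (245 to 368 against 696 to 1120, summed). Klrd1, the only tested NK marker of 3 measured, rose from 164 and 213 in WT to 2406 and 1655 in KO. The other NK markers were dim, with Ncr1 at 20.4 and 8.18 against 58.5 and 33.6 and Klra8 at 33.4 and 7.4 against 17.6 and 31.9. None of the 3 tested B cell markers passed (469 to 1093 against 687 to 987 summed over 4 measured), nor did any of the 3 tested dendritic cell markers (190 to 421 against 279 to 342 summed over 4 measured). The lowest marker signal on any array was 2.5, for Xcr1, and Pax5, Itgam, Ncr1, Klra8 and Xcr1 were too dim to be tested. The part of these cells in the values below was not tested, and in such bulk RNA fewer cells of a type and less RNA per cell cannot be told apart.

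Of the members, 5 genes were higher in KO cells (Jun, Junb, Fosl2, Batf and Batf3), Fos was lower, and Jund, Fosb, Fosl1 and Maff did not pass. A fold is KO over WT on the scale of signal + 16, which understates changes of dim probe sets, and called means an adjusted p under 0.05 in limma over all 27022 tested probe sets. Of the 14 member probe sets 13 were bright enough to be tested, and 6 were called higher and 1 lower. Over all tested probe sets 17.1% were called, 7.89% higher and 9.17% lower. Counting 1 probe set per gene, the brightest, 5 of 10 members were called higher and 1 lower, where 20.3% of 12547 genes were called, 10.5% higher and 9.87% lower. The median log2 fold change was 0.66 over the 13 member probe sets and -0.08 over all tested. Because the members were chosen with earlier results of these arrays known, these counts are no independent evidence of a direction. The KO arrays lay above both WT arrays at 7 of the 13 and below at 1, against 25.1% and 35.1% of all tested probe sets.

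**Figure D1:**
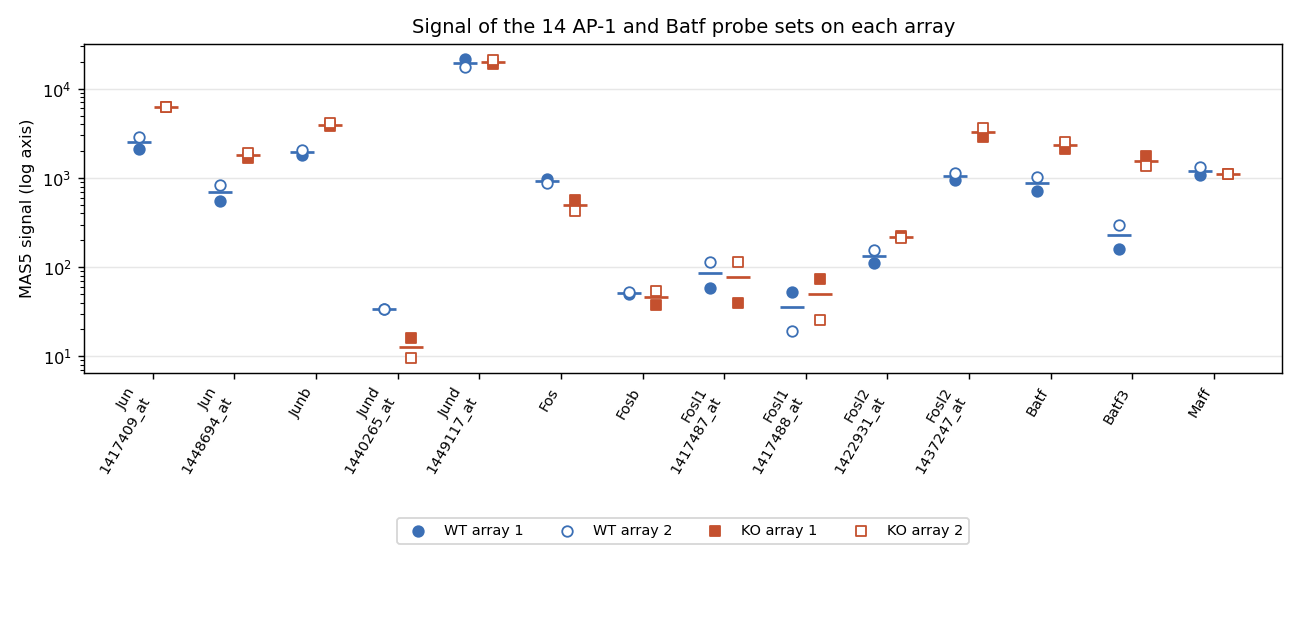
MAS5 signal (vertical log axis) of the 14 probe sets of the 10 members on each of the 4 arrays, with circles for WT, squares for KO, filled symbols for array 1, open symbols for array 2 and a bar for each group mean (n = 2). Both KO arrays lie above both WT arrays for Jun, Junb, Fosl2, Batf and Batf3 and below them for Fos and for the dim second Jund probe set, and the groups overlap for the others.

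The genes of 2 of the 3 Jun proteins rose. Jun, which encodes the founding AP-1 subunit and activates its own gene, read 2124 and 2902 on WT arrays 1 and 2 and 6195 and 6306 on KO arrays 1 and 2 (probe set 1417409_at). The KO arrays differed from each other by 0.03 on the log2 scale and the WT arrays by 0.45, and the lowest KO value stood 1.09 above the highest WT value. The mean rose from 2513 ± 549.8 to 6251 ± 78.4 (signal, SD, n = 2), or 2.51-fold (log2 fold change 1.33 ± 0.15, SE, adjusted p = 0.000629, limma). The other Jun probe set, 1448694_at, read 555 and 841 in WT against 1673 and 1901 in KO, a log2 fold change of 1.36 ± 0.19 (adjusted p = 0.00231). Both probe sets thus gave the same direction and nearly the same size.

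Junb, a Jun protein that partners Batf and is required for several helper T cell programmes, read 1788 and 2068 in WT and 3815 and 4085 in KO. The groups did not overlap, and both pairs of replicate arrays differed by no more than 0.21 on the log2 scale. The rise was 2.04-fold (1.03 ± 0.12, adjusted p = 0.000728). Jund, which is expressed steadily in many cell types, read 21536 and 17297 in WT and 19089.7 and 20894 in KO with probe set 1449117_at. These groups overlapped, with the WT arrays outermost. Its log2 fold change was 0.05 ± 0.11 with a 95% interval of -0.21 to 0.31 (adjusted p = 0.814). The second Jund probe set, 1440265_at, was too dim to be tested, at 33.9 and 34.1 in WT and 15.9 and 9.59 in KO. With no filter on dim probe sets its log2 fold change was -0.81 ± 0.42, short of the threshold (adjusted p = 0.33).

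The Fos genes split. Fos, the immediate early gene that is induced within minutes of receptor signals, read 978 and 883 in WT and 567 and 428 in KO. Both KO arrays were lower, by at least 0.62 on the log2 scale, with a difference of 0.39 between them. Its mean fell from 930.4 ± 66.7 to 497.6 ± 98.4, and the WT level was 1.86 times the KO level on the scale of signal + 16 (-0.89 ± 0.18, adjusted p = 0.0104). Fosl2, which encodes Fra-2, a Fos protein with a slower and longer induction, read 954 and 1134 in WT and 2840 and 3622 in KO with probe set 1437247_at. The KO arrays were higher by at least 1.31 on the log2 scale. This was a rise of 3.05-fold (1.61 ± 0.15, adjusted p = 0.000304). The dimmer Fosl2 probe set, 1422931_at, read 109.8 and 157 in WT and 222 and 213 in KO. It had non-overlapping groups in the same direction and did not pass (0.66 ± 0.26, 95% interval 0.08 to 1.25, adjusted p = 0.116).

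Fosb and Fosl1 (Fra-1), the other Fos genes, were dim. Fosb read 49.3 and 53.2 in WT and 37.7 and 54.5 in KO (-0.13 ± 0.39, 95% interval -1.01 to 0.75, adjusted p = 0.86). Fosl1 read 58.9 and 113 in WT and 40 and 115 in KO with probe set 1417487_at, and 51.9 and 19.2 against 73.8 and 25.3 with 1417488_at. The arrays numbered 1 and 2 differed more than the genotypes at both Fosl1 probe sets, and in opposite directions. The 95% intervals of the log2 fold change, -1.29 to 0.88 and -0.92 to 1.55, are wide, so that a 2-fold fall lies within the first and a 2-fold rise within the second.

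**Figure D2:**
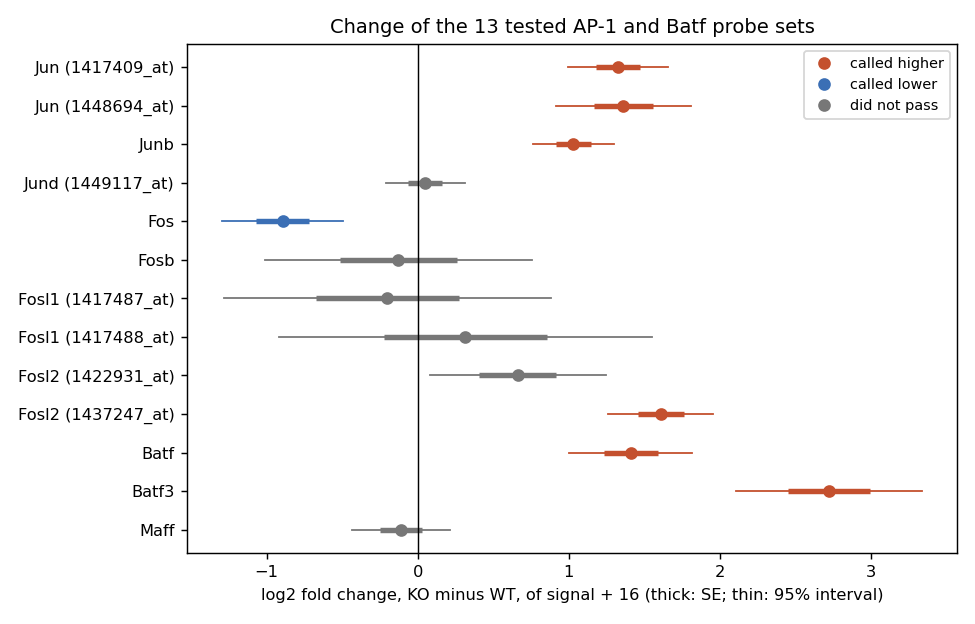
Log2 fold change (horizontal axis, KO minus WT, signal + 16) of the 13 tested member probe sets, with the SE as a thick bar and the 95% interval as a thin one. Batf3 has the largest change, at 2.72, Fos is the only called fall, at -0.89, and the intervals of Fosb and Fosl1 are the widest.

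Both Batf genes rose. Batf, which is needed for Th17 differentiation and pairs with Jun proteins, read 718 and 1026 in WT and 2131 and 2498 in KO. The lowest KO array was 1.04 above the highest WT array on the log2 scale. The mean rose from 871.8 ± 218 to 2314 ± 259, or 2.66-fold (1.41 ± 0.18, adjusted p = 0.00128). Batf3, best known for its need in a dendritic cell lineage and also present in activated T cells, read 158 and 300.2 in WT and 1738 and 1358 in KO. This was the member with the largest change, 6.61-fold (2.72 ± 0.27, adjusted p = 0.00038). The WT arrays differed by 0.86 on the log2 scale, and the log2 fold change was 2.30 without WT array 1 and 3.15 without WT array 2. Of the dendritic cell markers, Itgax read 56 and 61.5 in WT and 126 and 87.4 in KO, with both KO arrays above both WT arrays. Flt3 read 39.2 and 198 against 119.5 and 79.2, and Zbtb46 48.2 and 137 against 59.1 and 109.97. None of these 3 passed, and Xcr1, at 46.8 and 23.7 against 37.7 and 2.5, was too dim to be tested. The part of dendritic cells, or of the other cells whose markers rose, in the Batf3 values was not tested.

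Maff, a small Maf protein that binds DNA with partners outside the Jun and Fos families, read 1079 and 1315 in WT and 1099.8 and 1103 in KO. The KO values fell between those of WT. Its log2 fold change was -0.11 ± 0.14, with a 95% interval of -0.43 to 0.21 (adjusted p = 0.644).

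The members can be set against each other within an array, where a common scaling factor nearly drops out. Each shift is the difference between 2 log2 fold changes given above and adds no evidence of its own. The log2 difference of Jun (1417409_at) minus Fos was 1.11 and 1.70 on the WT arrays and 3.41 and 3.83 on the KO arrays, a shift of 2.22. For Fosl2 (1437247_at) minus Fos it was -0.03 and 0.36 in WT and 2.29 and 3.03 in KO, a shift of 2.50. The Fos family therefore changed unequally between its members. Junb minus Jund (1449117_at) shifted by 0.98, from -3.58 and -3.05 to -2.32 and -2.35. Batf3 minus Batf shifted by 1.31, from -2.07 and -1.72 to -0.29 and -0.87. In each of these the groups did not overlap, and an exact two-sided permutation test of 2 against 2 arrays cannot give less than p = 0.333, which it gave each time.

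Most of these calls used the variance that limma models as a function of signal. In a fit without that trend the same log2 fold changes had adjusted p = 0.0516 for Junb, 0.0518 and 0.0655 for the 2 Jun probe sets, 0.0567 for Batf and 0.0871 for Fos, so none of these passed. Fosl2 (1437247_at, adjusted p = 0.0395) and Batf3 (adjusted p = 0.0398) kept their calls. In that fit 2 member probe sets were called higher and 0 lower, while 7 and 1 had an unadjusted p under 0.05 in limma, and no other tool was run. Leaving out a single array leaves 1 array in its genotype, so the within-group spread then comes only from the other genotype. Such fits are a weak check of the calls. Over them the log2 fold change of Fos was -1.09 to -0.697.

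**Figure D3:**
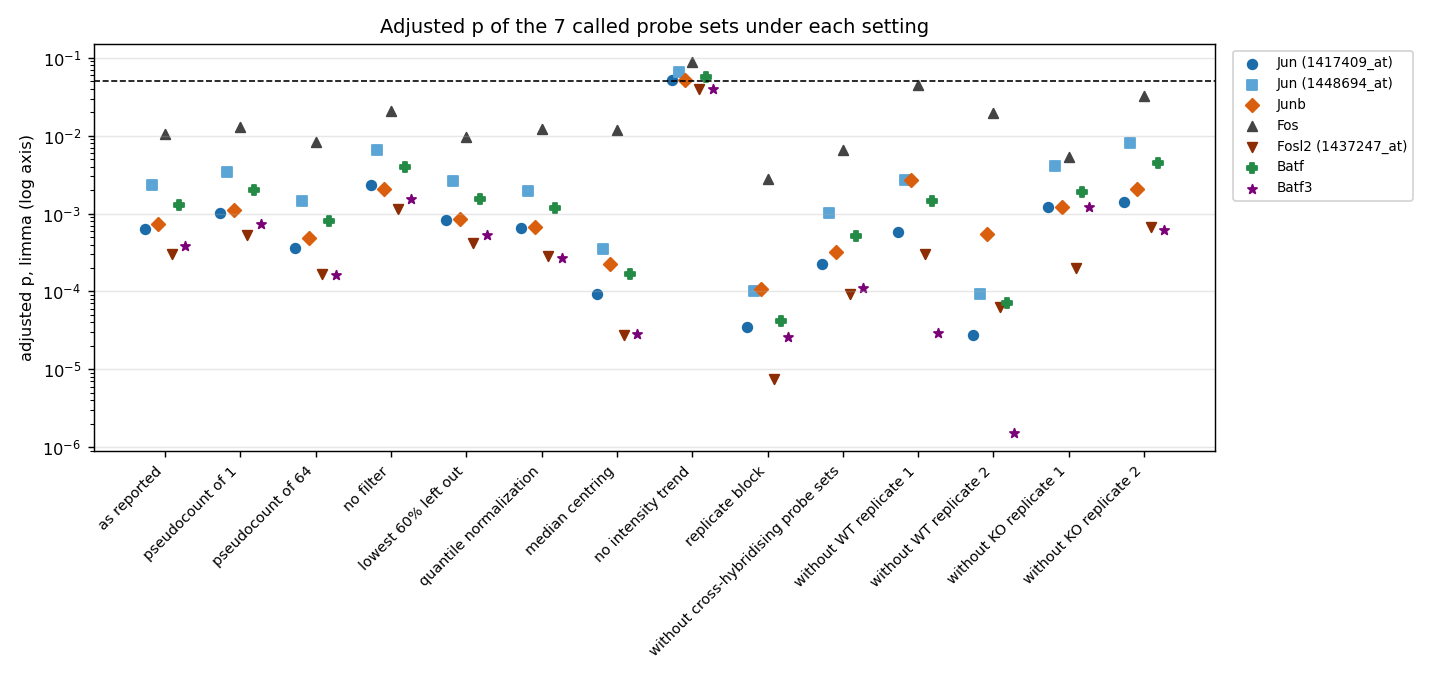
Adjusted p from limma (vertical log axis, dashed line at 0.05) of the 7 called member probe sets under the reported setting and 13 alternatives. The fit without an intensity trend is the only setting with points above the line, and Fos lies closest to the line in the reported fit. The fits that leave out an array take the within-group spread from the other genotype only and are a weak check.

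The other members of the wider bZIP class moved in both directions. Of the 29 measured 28 were tested, 8 rose, 3 fell and 17 did not pass, with a median of 0.09 against -0.03 over all tested genes. Over all tested genes 10.5% rose and 9.87% fell, so the falls are near that share. The counts of each list below stand beside these same shares. Maf, a large Maf protein that drives Il10 in T cells, rose most (4.02 ± 0.18, log2 fold change and SE), from 261 and 386 to 5092 and 5746. Jdp2, a repressor that dimerises with Jun, rose from 192 and 315 to 1711 and 1839 (2.77 ± 0.22, adjusted p = 0.000121), and Atf3, another Jun partner, rose by less (1.18 ± 0.22, adjusted p = 0.00865). The repressor gene Nfil3 (1.43 ± 0.11) and Crem (2.27 ± 0.21), which answers cyclic AMP, rose too, as did Cebpb (0.92 ± 0.11), Cebpd (2.20 ± 0.37) and Atf6 (1.53 ± 0.27). Dbp, a clock output factor, fell from 4660.4 and 4584 to 865 and 1060.1 (-2.25 ± 0.13, adjusted p = 2.44e-05), and Creb1 (-0.97 ± 0.14) and the stress gene Ddit3 (-0.52 ± 0.14) fell as well. Batf2, the third Batf gene, was dim at 40.3 and 70.1 in WT and 35.3 and 42.9 in KO and did not pass. Without the intensity trend 5 genes of the list were called higher and 1 lower, the losses among named genes being Atf3, Atf6, Cebpb, Creb1 and Ddit3. The call of Ddit3 also ended without WT array 2 or KO array 1 and with no filter, and the size for Cebpd moved by over 1.5 times with a pseudocount of 1 or 64.

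The proteins that share composite sites with Batf or AP-1 were all tested, and 3 of 10 rose and 4 fell (median 0.10). Irf4, the main Batf partner in T cells, rose from 2441 and 3063 in WT to 7418 and 7884 in KO (1.48 ± 0.12, adjusted p = 0.000172). Irf8, its relative, read 5904 and 6377 against 6222 and 6554 and did not pass (0.06 ± 0.10). The NFAT genes, whose proteins bind beside AP-1 on cytokine promoters, split, with Nfatc2 higher (0.74 ± 0.10, adjusted p = 0.00179) and Nfatc1 (-0.89 ± 0.11, adjusted p = 0.00121) and Nfatc3 (-0.50 ± 0.11) lower. Runx3 rose (0.71 ± 0.11), and Ets1 (-0.46 ± 0.09) and Ets2 (-1.10 ± 0.20) fell. Irf4 alone kept its call without the intensity trend. Without WT array 2 the calls of Nfatc3 and Ets1 were lost, which left 2 falls, and that of Ets1 was also lost without WT array 1.

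The MAP kinase cascade includes the kinases ERK, JNK and p38, which switch on and phosphorylate AP-1 proteins. Of its 19 tested genes 2 rose and 2 fell (median -0.10), near the shares over all genes, of which 10.5% rose and 9.87% fell. Map2k3, an activator of p38, rose (0.64 ± 0.10, adjusted p = 0.00317), and so did Mapk9, which encodes the kinase JNK2, from 1350.3 and 1581.5 to 2627 and 2359 (0.76 ± 0.13, adjusted p = 0.00516). Mapk14, which encodes p38 alpha (-0.58 ± 0.11), and Map3k3 (-0.68 ± 0.12) fell. Mapk8, the gene of JNK1, read 342 and 266 against 188 and 199.8 and did not pass with its brightest probe set (-0.60 ± 0.22). None of these calls remained without the intensity trend, and without WT array 1 Mapk14 was lost as well.

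Factors that act on the promoters of Fos and other immediate early genes fell more often than they rose. Of 9 tested, 4 fell and 1 rose (median -0.23). The ternary complex factor gene Elk4 fell from 3614 and 3701 to 1874 and 2055 (-0.89 ± 0.11, adjusted p = 0.00103), Mef2d by 0.70 ± 0.12, Mrtfb by 0.64 ± 0.15 and Srf, the serum response factor gene, by 0.60 ± 0.16 on the log2 scale (adjusted p = 0.0313). Elk3 rose (0.63 ± 0.14). None of the 5 was called without the intensity trend. Srf also lost its call with no filter, without either WT array and without KO array 1, Mrtfb without WT array 2 or KO array 1, and Elk3 without WT array 2.

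Other immediate early and handling stress genes moved in both directions. Of 21 tested, 3 rose, 7 fell and 11 did not pass (median -0.13). Nr4a3 (-1.10 ± 0.12, adjusted p = 0.000632) and Nr4a1 (-1.07 ± 0.13), which encode orphan nuclear receptors induced by the T cell receptor, fell, and so did Egr3 (-0.98 ± 0.17), Btg2 (-0.76 ± 0.11), Egr2 (-0.65 ± 0.14), Ier2 (-0.60 ± 0.09) and Egr1 (-0.41 ± 0.10). Ier3 rose from 1618 and 2174 to 8802 and 10052 (2.32 ± 0.15, adjusted p = 4.3e-05), and Klf6 (1.11 ± 0.12) and Gadd45b (0.55 ± 0.14) rose too. The heat shock genes Hspa1a, Hspa1b, Dnajb1, Hspa8 and Hsp90aa1, which respond to handling stress, did not pass. Both KO arrays lay above both WT arrays for Hspa1a and Hsp90aa1 (0.24 ± 0.09), and below them for Dnajb1 (-0.195 ± 0.11) and Hspa8 (-0.15 ± 0.08). Hspa1a read 6.01 and 80.6 in WT and 92 and 123 in KO, with a wide error (1.41 ± 0.63). The groups overlapped for Hspa1b, at 170 and 383 in WT and 311 and 361 in KO. Whether handling differed between the genotypes was not tested. Without the intensity trend Ier3, Klf6 and Nr4a3 kept their calls. Egr1 and Egr2 lost theirs without either WT array, Egr1 with no filter and with median centring, and Gadd45b without WT array 1 or either KO array.

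**Figure D4:**
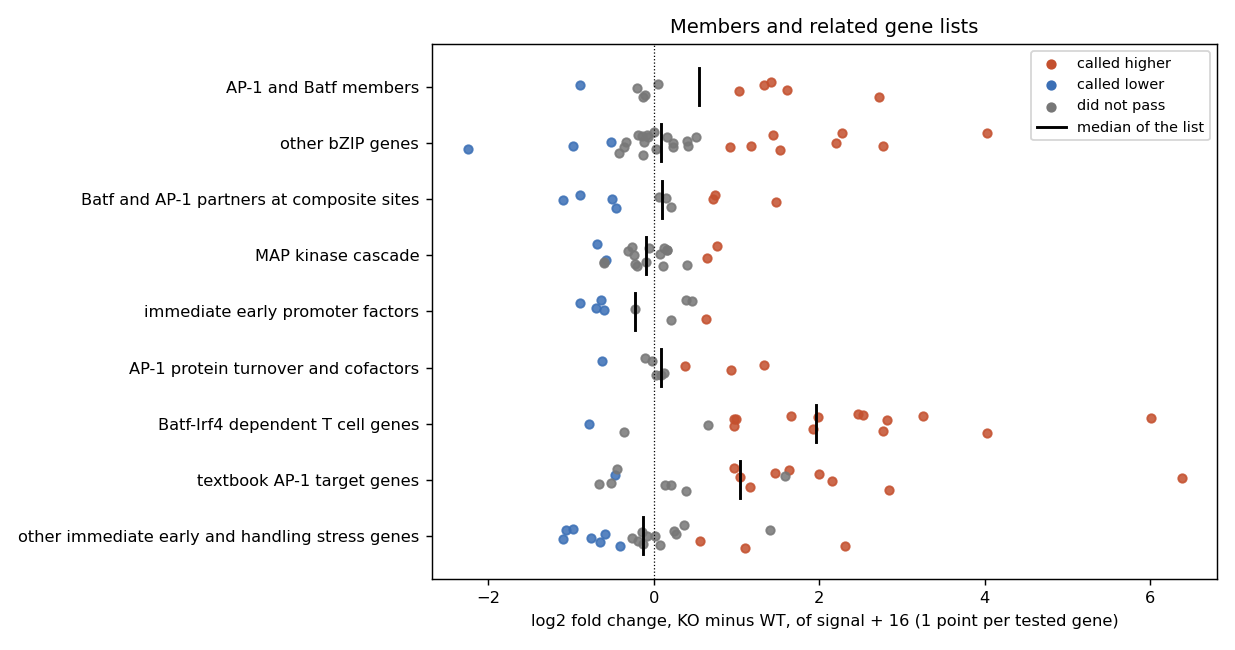
Log2 fold change (horizontal axis, KO minus WT, signal + 16) of each tested gene, 1 point per gene, for the 10 members and 8 related lists, coloured by call, with a black bar at each median. The median is highest for the Batf and Irf4 dependent T cell genes (1.96), it is 0.54 for the members, and the medians of both immediate early lists lie below 0.

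Genes that act on AP-1 proteins after translation, or with them at DNA, changed at 4 of 9 tested. Fbxw7, the substrate receptor of a ubiquitin ligase that degrades Jun, rose from 866 and 805 to 2146 and 2089.8 (1.33 ± 0.12, adjusted p = 0.000266). The ubiquitin ligase gene Nedd4 (0.94 ± 0.18) and its adaptor Ndfip2 (0.38 ± 0.10) rose, and the coactivator gene Crebbp fell (-0.63 ± 0.12, adjusted p = 0.00966). Itch, a ligase for Jun and Junb, read 1235 and 1485 against 1218.5 and 1297 and did not pass (-0.11 ± 0.14). The list's median was 0.08. Only Fbxw7 was called without the intensity trend. The call of Ndfip2 also ended with no filter, with median centring, without either WT array and without KO array 1. The probe sets of Fbxw7, and of Dbp, Nfatc3 and Srf above, are of a kind that may cross-hybridise.

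Genes known to depend on Batf and Irf4 in T cells were mostly higher. Of 16 tested, 13 rose, 1 fell and 2 did not pass, with a median of 1.96. This list was assembled with earlier results of these arrays known and is no independent evidence of its direction. Il10, the gene of an anti-inflammatory cytokine, rose from 43.2 and 82.4 to 4861 and 4926 (6.01 ± 0.23), and Icos, a costimulatory receptor, from 4369 and 5085 to 15505 and 14346 (1.66 ± 0.11). The receptor gene Ahr (2.53 ± 0.20) and Maf were the others with the smallest p. Bcl6 fell (-0.78 ± 0.19, adjusted p = 0.0259), and Ccr8 (0.65 ± 0.25) and Gata3 (-0.36 ± 0.13) did not pass. Without the intensity trend 8 were called higher and 0 lower, the fall of Bcl6 having an adjusted p above the threshold there. Its call also ended with no filter and without WT array 2 or KO array 1, and with a pseudocount of 64 the size for Il10 was smaller by over 1.5 times.

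Of 17 tested textbook AP-1 targets 9 rose, 1 fell and 7 did not pass (median 1.04). This list too was chosen with earlier results of these arrays known and is no independent evidence of its direction. Timp1, an inhibitor of matrix metalloproteinases, rose from 48.9 and 82.1 to 6274 and 7018.5 (6.38 ± 0.21), and its size was smaller by over 1.5 times with a pseudocount of 64. The granzyme gene Gzmb (2.85 ± 0.14), the adhesion receptor gene Cd44 (1.47 ± 0.10) and the death ligand gene Fasl (2.15 ± 0.16) followed by p. Il2, the classical NFAT and AP-1 target, was at 184 and 224 in WT and 334 and 510 in KO (0.97 ± 0.24, adjusted p = 0.0293). Ezr, which encodes the membrane linker ezrin, fell (-0.47 ± 0.09, adjusted p = 0.00955). Csf2 (-0.45 ± 0.15), Ccnd1 (-0.66 ± 0.30) and Tnf (0.13 ± 0.11), likewise textbook targets, did not pass. Without the intensity trend 6 were called higher and 0 lower, with Il2 and Ezr among the losses. Il2 also lost its call with no filter and without WT array 1 or KO array 2, and Ezr without WT array 1. Several of these genes, Gzmb and Timp1 among them, are also expressed by other cells whose markers rose in KO, and the part of those cells was not tested.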

How the data were processed

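The authors deposited an intensity on a linear scale for every probe set, for 2 WT and 2 KO arrays. MAS5 made these values, per the submitters' processing notes. Its version is not given in the sources used here. Gene names came from the platform annotation. The gene identifiers of all 10 members were found in the RefSeq table of GRCm38.p6.

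After 64 control probe sets were left out of 45101, log2(signal + 16) was taken and probe sets in the lowest 40% by mean log2 value (a signal of about 33.1 and below) were dropped, leaving 27022. The genotypes were compared by limma 3.58.1 under R 4.3.3 (lmFit, then eBayes allowing the variance to follow signal), two-sided. Adjusted p-values are Benjamini-Hochberg values across the 27022, and 0.05 was the threshold. There were 2 residual and 6.41 prior degrees of freedom. The fit was also run on simulated data with planted changes. The simulated errors were drawn from the fitted variance model itself, so this run cannot test that model.

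Lists used the brightest probe set of each gene. Of 130 list genes 79 had over 1 tested probe set, and 0 had calls in opposite directions, but for Creb3, Mapk8, Map3k7, Ndfip1, Ier5 and Nr4a2 another probe set was called while the brightest was not. Named were all members, up to 4 genes per list with the smallest p, and the others where they completed a count or are well known, chosen after their values were seen. The members and lists were chosen with earlier results of these data known. The number of arrays limits the precision. The alternatives were other pseudocounts (1 and 64), filters (none and 60%), quantile normalization, median centring, no trend, a replicate block, no cross-hybridising probe sets, each array left out and the mean of all probe sets per gene.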

Additional observations from a re-analysis of the deposited data

How the results depend on the processing

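The largest dependence was on the intensity trend. Without it 727 probe sets were called higher and 456 lower, in place of 2131 and 2477, and of the members 2 probe sets (2 genes) were called higher and 0 lower. Leaving out 1 array gave 1163 to 2570 probe sets called lower, the lowest without WT array 2 and 1421 without WT array 1, and the members kept 6 called higher and 1 lower in each such fit. No other setting ended a member call. The directions of members that did not pass were not stable. Leaving out 1 array gave log2 fold changes of -0.11 to 0.21 for Jund (1449117_at), -0.33 to 0.069 for Fosb, -0.81 to 0.41 and -0.24 to 0.88 for the Fosl1 probe sets 1417487_at and 1417488_at, and -0.25 to 0.029 for Maff. With the mean of all probe sets per gene Jund was at -0.38 and Fosl1 at 0.058. The array numbers are shared between genotypes, and the deviations of same-numbered arrays correlated at 0.0103 over probe sets. This single value cannot tell whether some genes moved with the number. Both dim Fosl1 probe sets differed by array number in WT and KO alike, but in opposite directions from each other, so they show no such move of the gene. Whether the numbers stand for a pairing was not tested. With the replicate block 5382 probe sets were called, and the member counts were 6 and 1 as before. Dim signals limit Fosb and Fosl1, and the spread between arrays limits all values.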
